A study of Homo sapiens with 24 samples.

Results

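The vacuolar H+-ATPase (V-ATPase) genes were followed in the SW872 human liposarcoma cell line. The set held 34 genes, chosen by name as the subunits, accessory proteins and assembly or regulatory factors of the pump, and it was found by Ensembl identifier among the 60279 genes of the count files. It consisted of 12 genes of the V1 sector, 13 genes of the V0 sector with its accessory proteins, and 9 assembly or regulatory genes. All 34 were present in the files, and 33 averaged 5 counts or more per library and were tested. The exception was ATP6V1G2, the neuronal G subunit, with 0 to 5 counts per library.

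The 24 libraries were bulk poly(A) RNA-seq of 8 groups with 3 libraries each. Cells had received a retroviral vector with a Flag-tagged construct, were selected with G418 and were kept as pooled stable lines, with separate transductions as replicates, so the p-values below cover the spread between such lines of a single cell line. EV carried the empty vector, and EVsub carried the same vector and was harvested sub-confluent. TAZ4SA and YAP5SA were the transcriptional coactivators TAZ and YAP with serines changed to alanine so that the LATS kinases cannot phosphorylate them. TAZ-CAMTA1 and YAP-TFE3 were the gene fusions of the vascular tumour epithelioid hemangioendothelioma. CAMTA1 and TFE3 were the full-length C-terminal partners. The CAMTA1 cells were collected sub-confluent and set against EVsub, while the cells of the other constructs, like EV, were collected 48 h after confluence and set against EV. The comparisons asked how each fusion differs from its control and from its parent proteins. In bulk RNA, fewer cells of a type and less RNA per cell cannot be told apart.

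The V-ATPase is a rotary proton pump that acidifies lysosomes, endosomes and secretory vesicles, and in specialised cells it acidifies the space outside the plasma membrane. The cytosolic V1 sector hydrolyses ATP in a ring of A and B subunits, and the membrane V0 sector moves protons through a ring of proteolipids against the a subunit. V1 and V0 can come apart and rejoin, and the RAVE-like proteins promote their assembly. TFE3 belongs to the MiT/TFE family of transcription factors, which bind E-box elements near many lysosomal genes, the pump genes among them, while YAP and TAZ act through TEAD factors.

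Total counts ran from 19700277 to 35287476 per library, and mitochondrial genes took 3.2 to 6.36% of them. Levels are given as CPM, counts divided by the TMM-scaled library size, and CPM per kb of annotated exon is used where genes are set beside each other. TFE3 stood at 119 CPM in EV, 336 in TFE3 and 283 in YAP-TFE3, YAP1 at 128 in EV and 253 in YAP5SA, and CAMTA1 at 21.4 in EV, 144 in TAZ-CAMTA1 and 124 in CAMTA1. WWTR1, the gene of TAZ, went against its label, with 204 ± 20.3 CPM (SD, n = 3) in EV and 134 ± 0.539 in the libraries labelled TAZ4SA. The paper shows the Flag-tagged TAZ4SA protein in SW872 cells on a western blot, which does not check the labels of these libraries. Replicate 3 of YAP-TFE3 stood apart from the other two YAP-TFE3 libraries, with a chi-square per degree of freedom of 56.2 and 71.4 against at most 26 for any other pair of replicates. The counts of called members in the YAP-TFE3 comparisons are therefore also given without it.

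The mesenchymal markers VIM, COL1A1, COL1A2, COL6A1, PDGFRB and THY1 were all detected, and their summed level was 1850 to 1950 CPM in EV and 1390 to 1540 in YAP-TFE3. At an edgeR adjusted p under 0.05, 4 of the 6 were lower and 1 was higher in YAP-TFE3, with a median log2 fold change of -0.79. Of all tested genes, 22.6% were lower and 25.6% higher. Markers of cell types that use the restricted pump subunits were near 0. The 4 markers of proton-secreting intercalated cells summed to 3.01 to 3.73 CPM in EV and 1.53 to 2.07 in YAP-TFE3, with FOXI1 at 0 in both. The 6 markers of macrophages or osteoclasts summed to 1.48 to 2.18 CPM in EV and 2.5 to 3.05 in YAP-TFE3, with OCSTAMP at 0 in both and PTPRC at no more than 1 count in any library of either group. The 4 epithelial markers summed to 1.07 to 2.45 CPM in EV and 5.99 to 14.5 in YAP-TFE3, most of it ESRP1, and the part of these differences in the pump genes was not tested.

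Promoters were looked at for the binding letters of the MiT/TFE and TEAD families. RefSeq promoters of GRCh38.p14, from 250 bases before to 50 bases after the start, were at hand for 23 of the 34 genes. No promoter was at hand for ATP6V1A, ATP6V1B2, ATP6V1C1, ATP6V1E2, ATP6V1H, ATP6V0D2, ATP6V0E1, RNASEK, TMEM199, CCDC115 and OXR1, which were not searched. The letters searched were the E-box core CACGTG and its flanked form TCACGTGA, both of which read the same on either strand, and the TEAD letters GGAATG on either strand. Every flanked match also counts as a core match. CACGTG stood in 4 of the 23 (17.4%), against 2396 of 27305 genes (8.77%). TCACGTGA stood in 2 (8.7%), against 321 genes (1.18%). GGAATG stood in 1 (4.35%), against 4567 genes (16.7%). A match is a description of letters, and not a shown binding site. The 5 windows with a match are printed because the study turns on a fusion of a TEAD cofactor with an E-box factor, and capitals mark the matched letters.
ATP6V1F (chr7:128862756-128862855, plus strand): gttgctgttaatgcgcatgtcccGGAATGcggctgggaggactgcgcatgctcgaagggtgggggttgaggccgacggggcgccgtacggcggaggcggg
ATP6V1G1 (chr9:114587669-114587768, plus strand): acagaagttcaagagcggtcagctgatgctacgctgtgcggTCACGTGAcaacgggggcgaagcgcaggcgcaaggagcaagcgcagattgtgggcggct
ATP6V0B (chr1:43974860-43974959, plus strand): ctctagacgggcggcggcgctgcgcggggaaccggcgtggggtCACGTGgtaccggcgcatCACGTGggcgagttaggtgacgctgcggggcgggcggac
ATP6V0D1 (chr16:67481158-67481257, minus strand): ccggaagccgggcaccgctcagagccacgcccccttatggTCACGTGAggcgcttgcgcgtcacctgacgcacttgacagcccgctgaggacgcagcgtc
ATP6V0E2 (chr7:149872868-149872967, plus strand): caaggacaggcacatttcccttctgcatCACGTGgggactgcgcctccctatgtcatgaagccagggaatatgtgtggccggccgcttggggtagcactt

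In EV cells the members spanned a wide range of levels per kb of exon. ATP6V1F, a central stalk subunit, was highest at 98.6 ± 13.9 CPM per kb, followed by ATP6V0E1, the small e1 subunit, at 54.7 ± 5.12 and the accessory protein ATP6AP1 (Ac45) at 43.4 ± 5.22. The catalytic A subunit ATP6V1A stood at 13.6 ± 0.825 CPM per kb. The restricted paralogs were low, with ATP6V1C2 at 0.414, ATP6V0A4 at 0.0582 and ATP6V0D2 at 0. ATP6V0C, the proteolipid c gene, was also low at 0.435 CPM per kb. It had 1 to 27 counts per library, shares 76.3% of its exon bases with other annotated genes on its strand and has 4 named pseudogenes, so its values are uncertain.

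More V-ATPase genes were higher than lower in YAP-TFE3 against EV, among them most of the widely used V1 subunits and part of V0. In edgeR's quasi-likelihood test, at an adjusted p under 0.05 over all 19997 tested genes, 17 of 33 members were higher and 3 were lower. The background in this comparison was 25.6% of all tested genes higher and 22.6% lower, against 51.5 and 9.09% of the members. The median log2 fold change was 0.31 over the members and -0.01 over all tested genes, and the members' median was 0.19 with offsets for transcript length and GC content. With YAP-TFE3 replicate 3 left out, 18 members were higher and 3 lower. The counts of higher members in the YAP-TFE3 comparisons include ATP6V0D2, which reached the mean of 5 counts only through the YAP-TFE3 libraries, the other 21 libraries holding 10 of its counts in all. The V1 sector had 7 of 11 tested members higher and 1 lower with a median of 0.49, V0 had 7 of 13 higher and 1 lower with a median of 0.31, and the assembly group had 3 of 9 higher and 1 lower with a median of 0.25.

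**Figure D1:**
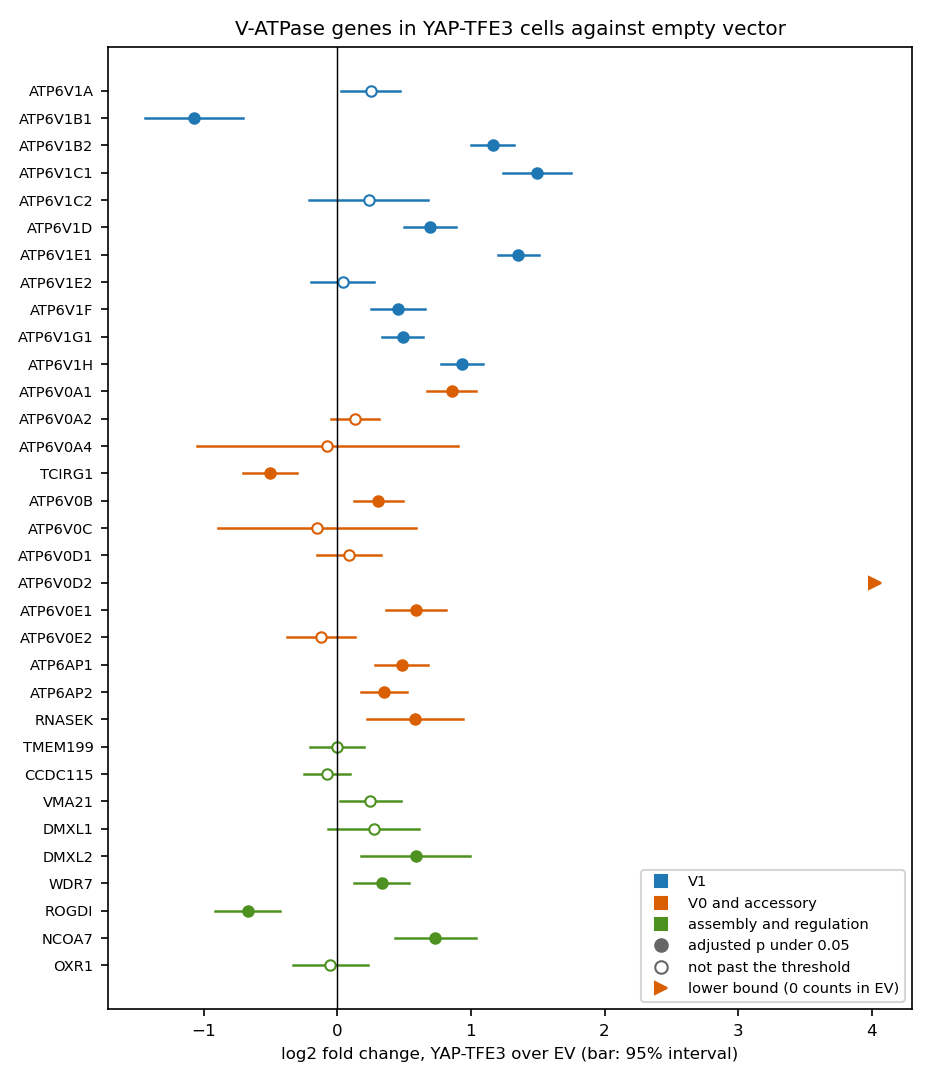
Log2 fold change of each tested member in YAP-TFE3 over EV with its 95% interval (n = 3 libraries a group). Filled points passed an adjusted p of 0.05 in edgeR's quasi-likelihood test, and the triangle is a lower bound because EV had 0 counts. To the right of 0 lie the triangle and 16 filled points, and the filled points to the left are ATP6V1B1, TCIRG1 and ROGDI.

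The C, E and B subunits of V1 moved most. ATP6V1C1, the C subunit that links V1 to V0, was at 45.6, 38.1 and 40.1 CPM in the EV libraries and at 118, 100 and 131 in the YAP-TFE3 libraries. The groups were far apart, with a log2 fold change of 1.5 ± 0.13 (SE, edgeR adjusted p = 1.4e-09). ATP6V1E1, the E subunit of the peripheral stalk (chr22:17592136-17628749), was at 72.6, 75.7 and 84.7 CPM in EV and at 186, 186 and 224 in YAP-TFE3. Every YAP-TFE3 library was above every EV library, with a log2 fold change of 1.36 (adjusted p = 1.61e-12). ATP6V1B2, the widely expressed B subunit of the ATPase ring, went from 153 ± 11.3 CPM (SD, n = 3) to 342 ± 23.8, a log2 fold change of 1.16 (adjusted p = 4.06e-11). The other V1 genes called higher were ATP6V1H, the regulatory H subunit, at 0.94, the central stalk genes ATP6V1D at 0.70 and ATP6V1F at 0.45, and the peripheral stalk gene ATP6V1G1 at 0.49. ATP6V1F, with the TEAD letters, and ATP6V1G1, with the flanked E-box, are the V1 genes whose promoter windows are printed above. The promoters of ATP6V1E1 and ATP6V1D were searched and held none of the letters, while ATP6V1C1, ATP6V1B2 and ATP6V1H had no promoter to search.

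The catalytic subunit was not among them. ATP6V1A was at 86.3 ± 5.22 CPM in EV and 103 ± 12.3 in YAP-TFE3, a log2 fold change of 0.25 with an interval of 0.03 to 0.47 (adjusted p = 0.0681). The restricted paralogs ATP6V1C2 (0.24) and ATP6V1E2 (0.04) were not called either. ATP6V1B1, the B subunit of proton-secreting epithelia (chr2:70935900-70965431), was the V1 gene called lower. It stood at 3.35, 3.28 and 3.64 CPM in EV and at 1.3, 1.76 and 1.79 in YAP-TFE3, with no overlap and a log2 fold change of -1.07 (adjusted p = 4.82e-05). ATP6V1B1 shares 63.1% of its exon bases with VAX2 on the same strand, and VAX2 was at 4.57 CPM in EV and 2.88 in YAP-TFE3, so its values are uncertain.

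**Figure D2:**
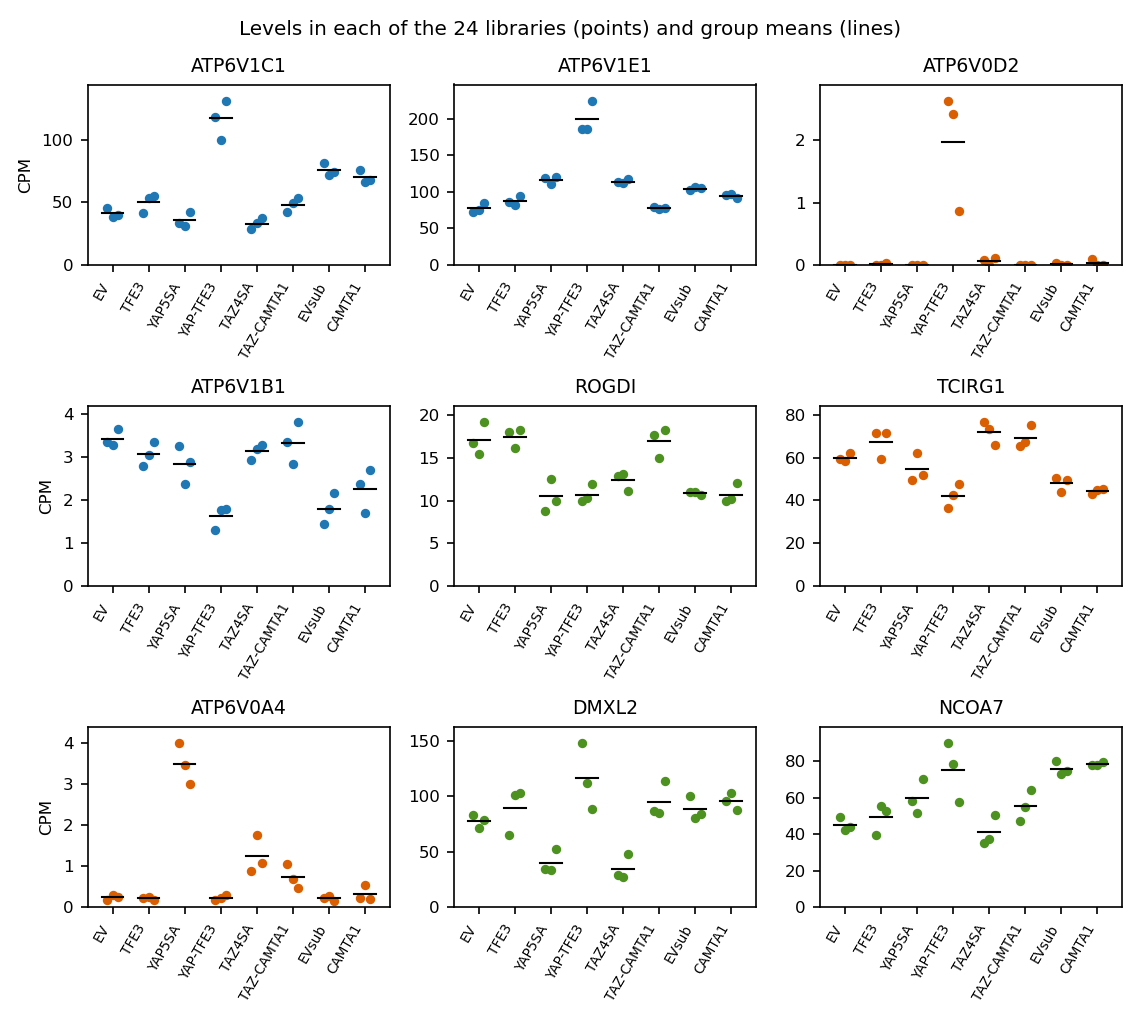
CPM of 9 members in each of the 24 libraries (points) with group means (lines), each panel starting at 0. ATP6V1C1 and ATP6V1E1 were highest in the 3 YAP-TFE3 libraries, ATP6V0D2 was near 0 elsewhere, and ATP6V0A4 was highest in YAP5SA.

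In V0, the a1 and d2 subunits stood out. ATP6V0A1, the a1 subunit (chr17:42458844-42522582), went from 42.9 ± 3.24 to 77.6 ± 8.37 CPM, a log2 fold change of 0.86 (edgeR adjusted p = 6.31e-08). ATP6V0D2, the d2 subunit known from osteoclasts and kidney, had 0 CPM in all 3 EV libraries and 2.63, 2.42 and 0.868 CPM in the YAP-TFE3 libraries. The YAP-TFE3 libraries held 30 to 81 of its counts, with replicate 3 the lowest, and the mean was at least 16.3-fold higher than EV when EV was set to 3 counts per library. No p is given for it, since it was tested only because of the group in which it is high. In the other groups ATP6V0D2 had at most 3 counts in any library.

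The other V0 genes called higher changed less. They were ATP6V0E1 (0.59), the f subunit RNASEK (0.58), the accessory genes ATP6AP1 (0.48) and ATP6AP2, the prorenin receptor (0.35), and the proteolipid gene ATP6V0B (0.31). RNASEK had 30 to 128 counts per library, shares 36.9% of its exon bases with C17orf49 and a readthrough gene on the same strand, and was the called member whose groups overlapped, at 2.73, 1.94 and 2.04 CPM in EV and 2.7, 3.71 and 3.7 in YAP-TFE3. The call of RNASEK was lost without EV replicate 2 (adjusted p = 0.0636), and that of ATP6V0B without EV replicate 1 (0.081), and both with only the groups compared (0.0545 and 0.0746). TCIRG1, the a3 subunit of lysosomes and osteoclasts (chr11:68039025-68050895), was called lower. It was at 59.3, 58.2 and 62 CPM in EV and at 36.5, 42.5 and 47.6 in YAP-TFE3, with no overlap and a log2 fold change of -0.50 (adjusted p = 0.000274). ATP6V0D1 (0.09), ATP6V0A2 (0.13), ATP6V0A4 (-0.07), ATP6V0C (-0.15) and ATP6V0E2 (-0.12) were not called. The promoter windows with TCACGTGA belonged to ATP6V1G1, called higher, and ATP6V0D1, not called.

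Because the a1 and a3 genes went in opposite directions, the makeup of the a subunit mRNAs was set out per kb of exon. TCIRG1 made up 73.2 ± 0.841% (SD, n = 3) of the 4 a subunit genes in EV and 54.7 ± 1.61% in YAP-TFE3. ATP6V0A1 made up 18.6 ± 0.995% in EV and 35.8 ± 0.606% in YAP-TFE3. Every YAP-TFE3 library had a lower TCIRG1 share and a higher ATP6V0A1 share than every EV library. ATP6V0A2 was at 7.87 ± 0.728% in EV and 9.26 ± 1.74% in YAP-TFE3. With the longest transcript as the length, ATP6V0A1 went from 16.4 to 31.9% and TCIRG1 from 71.5 to 53.9%. Among the B subunits ATP6V1B1 went from 6.18 to 1.38%, and among the d subunits ATP6V0D2 went from 0 to 3.92 ± 2.31%. An exact permutation test of 3 against 3 libraries cannot give a p below 0.1, so these shares are given without a p.

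**Figure D3:**
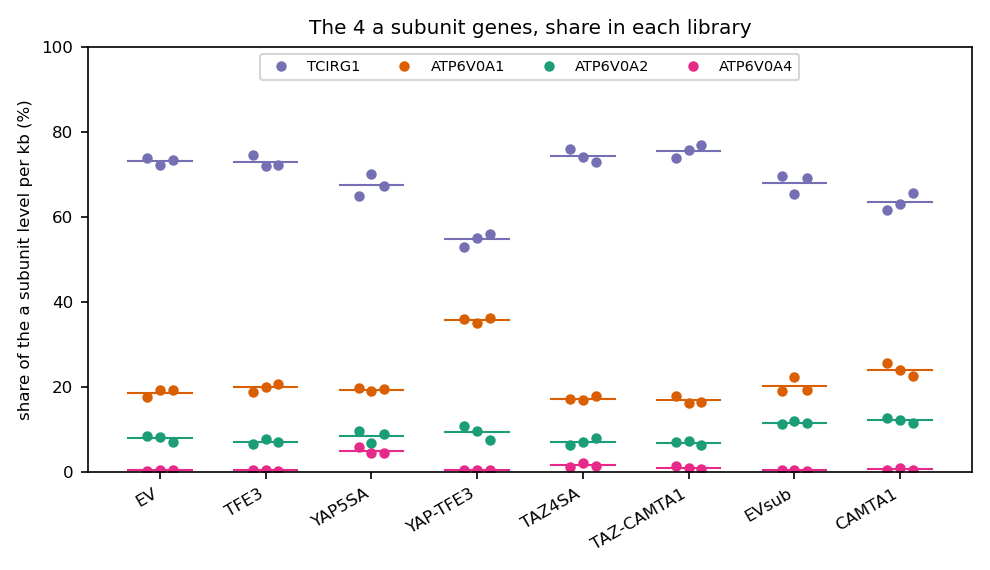
Share of each of the 4 a subunit genes in their summed level per kb of exon, for every library (points) and group mean (lines), in percent. TCIRG1 was the largest in all groups, and the YAP-TFE3 libraries had the lowest TCIRG1 and the highest ATP6V0A1 shares.

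The assembly and regulatory genes were divided. NCOA7, a TLDc-domain protein that binds the pump, was higher by a log2 fold change of 0.74 (edgeR adjusted p = 0.000379). Of the RAVE-like genes, DMXL2 was higher by 0.59 (adjusted p = 0.0234) and WDR7 by 0.33 (adjusted p = 0.0112). DMXL2 spread widely in YAP-TFE3, at 148, 112 and 88.1 CPM against 82.6, 70.9 and 78.5 in EV, and the call was lost without EV replicate 2 (0.0829), EV replicate 3 (0.0503) or YAP-TFE3 replicate 1 (0.169). It was also lost with total-count scaling (0.0776). The WDR7 call was lost without EV replicate 1 (0.0626), with total-count scaling (0.0908) and with length and GC offsets, where its log2 fold change was 0.18 (0.0892). ROGDI, another RAVE-like gene (chr16:4796968-4802880), was lower, at 16.7, 15.5 and 19.2 CPM in EV and 10, 10.3 and 11.9 in YAP-TFE3. Its groups did not overlap, and the log2 fold change was -0.67 (adjusted p = 8.93e-05). DMXL1 (0.27), the TLDc gene OXR1 (-0.05) and the endoplasmic reticulum assembly genes VMA21 (0.25), TMEM199 (0.00) and CCDC115 (-0.08) were not called. VMA21 passed without YAP-TFE3 replicate 3 (0.0336) or EV replicate 1 (0.0158), and with no filter both VMA21 (0.0439) and DMXL1 (0.0286) passed.

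Cell density was part of the design, since EVsub cells were harvested sub-confluent. Against EVsub, YAP-TFE3 had 13 members higher and 1 lower, with a background of 29.1% higher and 26.1% lower and a members' median of 0.16. The V1 sector had 6 higher and 0 lower, V0 had 7 and 0, and the assembly group had 0 and 1. RNASEK (1.1), ATP6V1B2 (1.01) and ATP6V0A1 (0.96) had the largest fitted rises beside ATP6V0D2, and ATP6V1C1 was at 0.61. OXR1 was lower by a log2 fold change of -0.56 (edgeR adjusted p = 0.00167). ATP6V1B1 (-0.17), TCIRG1 (-0.18), ROGDI (-0.01) and NCOA7 (-0.01) were not called against EVsub. Nor were ATP6V1D (0.16), ATP6V1G1 (0.11), DMXL2 (0.40) and WDR7 (0.19), which had been called higher against EV. Against both controls 12 members were higher. Without YAP-TFE3 replicate 3 there were 14 higher and 3 lower, with DMXL2 (0.57) gained among the higher and TCIRG1 (-0.28) and CCDC115 (-0.25) among the lower.

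EVsub itself differed from EV in 17 members, with 11 higher and 6 lower against a background of 19.8 and 17.1%. The median log2 fold change was 0.11 over members and -0.02 over all tested genes. The largest rises were ATP6V1C1 (0.88, adjusted p = 2.24e-05), NCOA7 (0.75) and ATP6V1D (0.53), and the largest falls were ATP6V1B1 (-0.91), ROGDI (-0.66) and RNASEK (-0.52). V1 had 6 higher and 2 lower, V0 had 1 and 3, and the assembly group had 4 and 1. Without EV replicate 3 the counts were 9 higher and 2 lower, and with length and GC offsets 5 and 4, with a median of -0.05. The ATP6V1B1, ROGDI and TCIRG1 levels of YAP-TFE3 thus lay below those of EV together with those of the sub-confluent controls, and the part of density in them was not tested.

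In the hyperactive parent YAP5SA against EV, 8 members were higher and 6 lower, beside a background of 22.7 and 21.6%, so the share of members was near that of all genes. The median was 0.01 over members and -0.04 over all tested genes. V1 had 6 higher and 0 lower, V0 had 1 and 2, and the assembly group had 1 and 4. Without EV replicate 3 the counts were 4 higher and 5 lower, and without YAP5SA replicate 1 they were also 4 and 5.

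ATP6V0A4, the a4 subunit of kidney intercalated cells, was at 0.173, 0.305 and 0.242 CPM in EV and at 4.01, 3.47 and 3.01 in YAP5SA. All YAP5SA libraries were well above EV, with a log2 fold change of 3.85 ± 0.35 (SE, edgeR adjusted p = 3.66e-09), and a4 took 4.87 ± 0.858% of the a subunit level per kb in YAP5SA against 0.327% in EV. ATP6V1D (0.67) and ATP6V1E1 (0.58) were the next largest rises. The falls were led by ATP6V0C (-1.91), at 0.616 CPM in EV and 0.162 in YAP5SA on few counts, then DMXL2 (-0.95) and ROGDI (-0.71).

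The libraries labelled TAZ4SA had 8 members higher and 9 lower than EV, against a background of 25.1 and 24.2%. The median was -0.09 over members and -0.03 over all tested genes. V1 had 5 higher and 2 lower and V0 had 3 and 0, whereas the assembly group had 0 higher and 7 lower with a median of -0.41. The largest rises were ATP6V0A4, at 0.884, 1.76 and 1.08 CPM (log2 fold change 2.35, edgeR adjusted p = 2.7e-05), ATP6V1E1 (0.56) and ATP6V1B2 (0.48). The largest falls were DMXL2 (-1.16), DMXL1 (-0.75) and OXR1 (-0.72). DMXL2 was at 82.6, 70.9 and 78.5 CPM in EV and at 28.7, 27.1 and 48 in the libraries labelled TAZ4SA, with no overlap.

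DMXL1 and DMXL2 have transcripts of at least 10000 bases, as have 745 tested genes. Those 745 had a median of -0.20 in the libraries labelled TAZ4SA against EV, with 39.7% called lower. In YAP5SA vs EV they had a median of -0.10, with 33% called lower. The part of transcript length in the DMXL values was not tested. Without TAZ4SA replicate 1 the counts were 6 higher and 5 lower. With offsets for transcript length and GC content, added after seeing the data, 9 were higher and 6 lower. Under those offsets VMA21 and ATP6V1C1 changed sign, to 0.13 and 0.02. The calls of WDR7 (-0.17, edgeR adjusted p = 0.133), ATP6V1A (-0.09, 0.401) and TCIRG1 (0.11, 0.26) were lost. Scaled to total counts alone, the split was 3 higher and 13 lower, with a shift of all genes of -0.20. Total counts gave YAP5SA 4 higher and 12 lower, where all genes shifted by -0.19.

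**Figure D4:**
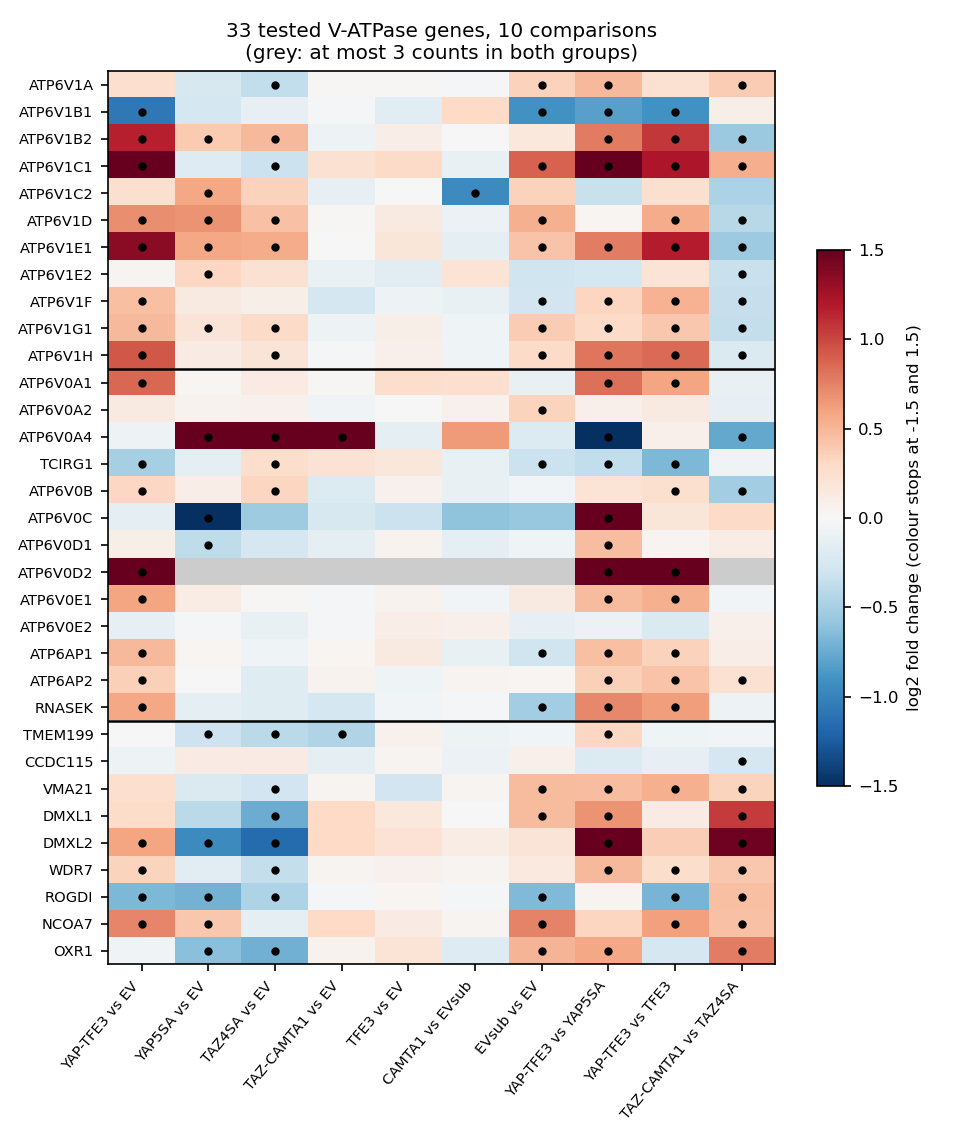
Log2 fold change of the 33 tested members (rows, in the order V1, V0 and assembly, with lines between) in 10 comparisons (columns), red for higher and blue for lower in the first group. Dots mark an edgeR adjusted p under 0.05, and grey cells are ATP6V0D2 with at most 3 counts in both groups. The columns of YAP-TFE3 hold most of the dark red cells, and TFE3 vs EV has no dot.

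Set directly against its hyperactive parent, YAP-TFE3 had 21 members higher and 3 lower than YAP5SA, beside a background of 28.1 and 24.3%. The median was 0.45 over members (0.22 with length and GC offsets) and 0.05 over all tested genes. ATP6V0D2 was at least 14.6-fold higher, since YAP5SA had 0 counts. ATP6V0C (1.76) on few counts, ATP6V1C1 (1.70) and DMXL2 (1.54) were the largest fitted rises. The falls were ATP6V0A4 (-3.92, edgeR adjusted p = 9.85e-10), ATP6V1B1 (-0.81) and TCIRG1 (-0.37). Without YAP-TFE3 replicate 3 there were 21 higher and 4 lower, and the call of ATP6V1F was lost (0.0519). With length and GC offsets there were 19 higher and 5 lower, and the calls of DMXL1, VMA21 and ATP6V1G1 were lost. The 745 genes with long transcripts had a median of 0.25 here, with 44.3% called higher, and their part in the DMXL2 value was not tested.

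Against full-length TFE3, YAP-TFE3 had 17 members higher and 3 lower, beside a background of 25.4 and 22.5%. The median was 0.26 over members and -0.02 over all tested genes. ATP6V1C1 (1.22), ATP6V1E1 (1.18) and ATP6V1B2 (1.06) were the largest rises with a fold, and no fold is given for ATP6V0D2, since the TFE3 libraries held 0, 0 and 1 count. ATP6V1B1 (-0.91), ROGDI (-0.70) and TCIRG1 (-0.67) were lower. Without YAP-TFE3 replicate 3 there were 17 higher and 5 lower, and the calls of ATP6V0B (adjusted p = 0.122) and WDR7 (0.0884) were lost. With total-count scaling there were 15 higher and 5 lower, with a members' median of 0.17. The comparisons of YAP-TFE3 share its 3 libraries, so their counts are not independent of each other.

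Full-length TFE3 itself gave no call. In TFE3 vs EV edgeR called 0 of 33 members, against a background of 0.035% higher and 0% lower, and DESeq2 called 0. Of all 19997 tested genes only 7 were called, so 0 of 33 members was near the background share. The median log2 fold change was 0.06 over members and 0.00 over all tested genes. Of the members, 22 lay above 0 and 10 below, leaving out ATP6V0D2 with at most 3 counts in both groups. At an unadjusted edgeR p under 0.05 there were 4 of 33 members and 757 of all 19997 tested genes. The members' log2 fold changes were 0.28 for ATP6V1C1, 0.18 for ATP6V1E1, 0.26 for ATP6V0A1 and -0.29 for VMA21. The TFE3 gene was at 336 CPM there and at 283 CPM in YAP-TFE3, and both values include the cells' own TFE3 transcripts. The fusion carries only the C-terminal part of TFE3, so these values do not compare the amounts of construct.

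Few members were called in TAZ-CAMTA1 vs EV, with 1 higher and 1 lower, against a background of 3.55 and 1.44%. ATP6V0A4 was at 1.06, 0.685 and 0.461 CPM against 0.173, 0.305 and 0.242 in EV, above EV in each library, with a log2 fold change of 1.59 (edgeR adjusted p = 0.0253). TMEM199, which serves V0 assembly in the endoplasmic reticulum, was at 8.3, 8.05 and 6.83 CPM against 10.6, 10.2 and 10.8, below EV in each library, with a log2 fold change of -0.45 (adjusted p = 0.0127). The ATP6V0A4 call was lost without any of EV replicates 1, 2 and 3 or TAZ-CAMTA1 replicates 1 and 2 (0.0523 to 0.128), and the TMEM199 call without TAZ-CAMTA1 replicate 3 (0.126).

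Set against the libraries labelled TAZ4SA, TAZ-CAMTA1 had 10 members higher and 10 lower, with a background of 26.9 and 26.8%. V1 had 2 higher and 7 lower, and the assembly group had 7 higher and 1 lower. DMXL2 (1.46), DMXL1 (1.04) and OXR1 (0.77) were the largest rises, and ATP6V0A4 (-0.77, edgeR adjusted p = 0.0438), ATP6V1B2 (-0.56) and ATP6V1E1 (-0.55) the largest falls. The groups overlapped for ATP6V0A4, and its call was lost in DESeq2 (0.0674), with total-count scaling (0.119), with only the groups compared (0.0895), with thinned counts (0.087), and without TAZ4SA replicate 2 (0.303) or TAZ-CAMTA1 replicate 2 (0.102) or 3 (0.19). Long transcripts as a whole had a median of 0.31 here, with 48.3% called higher. Without TAZ4SA replicate 1 the counts were 6 higher and 7 lower, with total counts as the scaling 12 and 3 under a shift of all genes of 0.20, and with length and GC offsets 5 and 11.

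CAMTA1 against EVsub had 0 members higher and 1 lower, with a background of 1.26 and 0.57%. The gene was ATP6V1C2, a C subunit paralog of restricted tissues, at 0.843, 1.22 and 0.786 CPM in CAMTA1 and 2.52, 1.62 and 1.48 in EVsub. The groups did not overlap, and the log2 fold change was -0.95 (edgeR adjusted p = 0.0384). The call was lost without CAMTA1 replicate 1 or 3 or EVsub replicate 1 or 2. Exons of PDIA6 on the opposite strand cover 29.8% of those of ATP6V1C2.

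**Figure D5:**
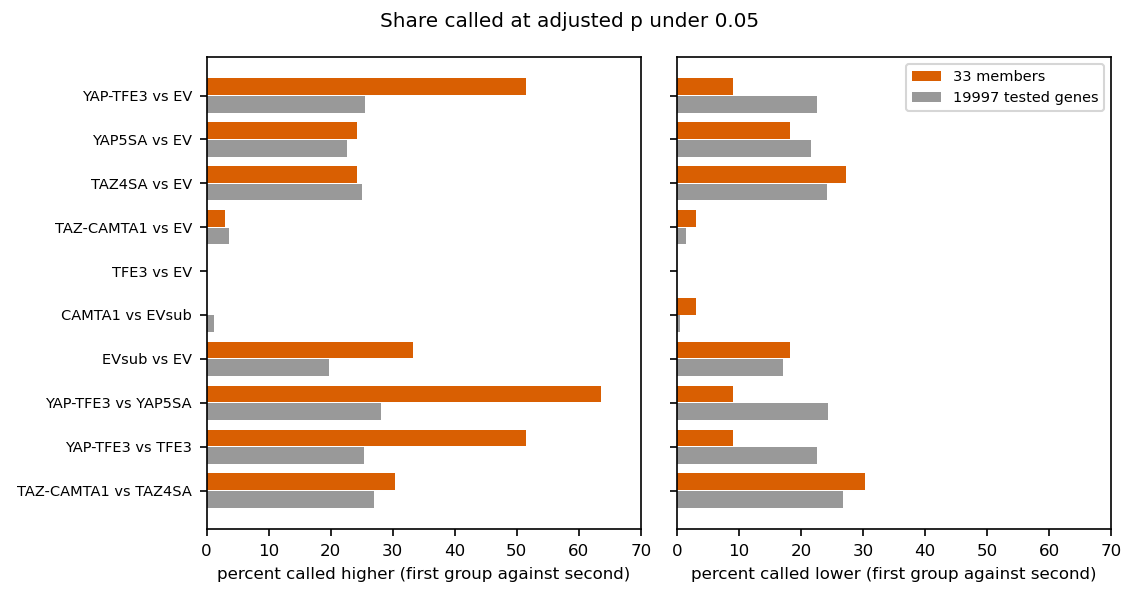
Percent of the 33 tested members (orange) and of all 19997 tested genes (grey) called higher (left) and lower (right) in each comparison at an edgeR adjusted p under 0.05. The orange bar for higher genes was 51.5% in YAP-TFE3 vs EV against 25.6% of all genes, and both bars were short or absent for TAZ-CAMTA1, TFE3 and CAMTA1 against their controls.

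Other genes that work with the pump were read in the same YAP-TFE3 vs EV fit, in which 25.6% of all tested genes were higher and 22.6% lower. Of 13 genes of the Ragulator and Rag GTPase complexes and their partners, which sense amino acids at the lysosome together with the V-ATPase, 6 were higher and 0 lower (median 0.29). RRAGD, a Rag GTPase, went from 3.6 to 109 CPM, a log2 fold change of 4.94, and RRAGC (0.98) and FLCN (0.86), its GTPase-activating partner, followed. Of 15 genes for ion transport of acid organelles, 10 were higher and 1 lower (median 0.56), led by the cation channels MCOLN2 (2.35) and MCOLN3 (2.26) and the chloride/proton exchanger CLCN5 (1.98), with the Na+/H+ exchanger SLC9A7 (-0.23) lower. Of the 3 tested MiT/TFE genes, TFE3 (1.25, which includes the construct) and MITF (0.66) were higher and TFEB (-0.97) was lower. Of 6 tested further proteins tied to the pump, TM9SF4 (0.26) was called higher. In TFE3 vs EV, where no pump gene was called, RRAGD (1.21, edgeR adjusted p = 0.0143) and CLCN5 (0.60, adjusted p = 0.0242) were higher.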

How the data were processed

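Poly(A) RNA of 24 SW872 libraries was sequenced, and the authors aligned reads to hg38 with Hisat2 in the bcbio-nextgen pipeline. They also ran Salmon on the transcriptome and made gene-level counts from it with tximport. The deposited files hold raw gene counts per library, not normalized. Which tool made the deposited counts, its strand setting and its use of multi-mapping reads are not given in the sources used here. Libraries were grouped by GEO labels. All 24 were fitted together, with 1 mean per group, in edgeR 4.0.16 (R 4.3.3) by glmQLFit and glmQLFTest with TMM scaling, on the 19997 of 60279 genes that averaged 5 counts or more, and p was adjusted by Benjamini-Hochberg over all tested genes. Genes were called at an adjusted p under 0.05. The low-count rule took the mean of 5 counts by which the study set the gene population of its hypergeometric tests. The study tested expression with DESeq2, and DESeq2 1.42.0 was an alternative here. Gene positions and lengths came from GENCODE release 44 (GRCh38), which held 56104 of the identifiers, and promoters from RefSeq.

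The members, pathway lists and tests were chosen with earlier results of these data known. Every tested member is named in YAP-TFE3 vs EV, and elsewhere up to 3 rises and 3 falls by size, with values per library for the 3 largest of each and for calls in the sparse comparisons. The alternatives were other scalings, filters, samples, a replicate block, thinned counts and leaving out each library; length and GC offsets, and EVsub as control with and without YAP-TFE3 replicate 3, were added after seeing the data. Replicate numbers were not used to pair the libraries, except in the fit with a replicate block. The method was tested on simulated counts with a single fixed spread and a small set of changed genes, which does not measure its error in these data. Total counts of 19700277 to 35287476 per library set the precision, and a count of 0 allows up to 3 counts, which covers counting error only.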

Additional observations from a re-analysis of the deposited data

How the results depend on the processing

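No called member of YAP-TFE3 vs EV changed sign under any alternative that kept EV as the control (NCOA7 was -0.01 against EVsub), and its count of called members stayed within 1.5 times of 20. Leaving out single libraries gave 9 to 12 called members in YAP5SA vs EV, 11 to 17 in TAZ4SA vs EV, 1 in TAZ-CAMTA1 vs EV, 0 to 1 in CAMTA1 vs EVsub, 11 to 16 in EVsub vs EV and 13 to 20 in TAZ-CAMTA1 vs TAZ4SA. Other moved counts were 1 in TAZ-CAMTA1 vs EV with no filter, 0 in CAMTA1 vs EVsub with only the groups compared or thinned counts, and 9 in EVsub vs EV with length and GC offsets. The cause of these changes was not tested, beyond the fewer libraries in the fits that leave some out.

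Reversed values in YAP-TFE3 vs EV were small ones that had not been called: TMEM199 was 0.0268 with no filter and 0.0185 with thinned counts, where ATP6V0C was 0.0847, ATP6V1E2 was -0.0418 with total counts and -0.00685 with the offsets, and ATP6V0A2 was -0.0105 with the offsets. Leaving out libraries gave ATP6V1E2 -0.0679 to 0.205, ATP6V0A4 -0.302 to 0.154, ATP6V0E2 -0.294 to 0.023, OXR1 -0.194 to 0.0451, ATP6V0C -0.414 to 0.32, ATP6V0D1 -0.0678 to 0.217 and TMEM199 -0.047 to 0.0543. With total counts ATP6V1H in TAZ4SA vs EV was -0.00385. With the offsets VMA21 was 0.129 and ATP6V1C1 0.0216 in TAZ4SA vs EV, VMA21 was -0.0399 in EVsub vs EV, and ATP6V1A was -0.0119, NCOA7 -0.054 and VMA21 -0.248 in TAZ-CAMTA1 vs TAZ4SA. Member medians with total counts were -0.175 in YAP5SA vs EV and 0.155 in TAZ-CAMTA1 vs TAZ4SA, and with the offsets 0.0542 in TAZ4SA vs EV and -0.0459 in EVsub vs EV. Leaving out libraries gave medians of -0.0196 to 0.0466 in YAP5SA vs EV, -0.0872 to 0.00179 in TAZ4SA vs EV and -0.041 to 0.018 in TAZ-CAMTA1 vs EV.

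The mean correlation of same-numbered deviations was -0.0962 to 0.129, and the main fit did not pair libraries by number. A small correlation does not show that same-numbered libraries had nothing in common. With the replicate number as a block, called members were 21 in YAP-TFE3 vs EV, 16 in YAP5SA vs EV, 17 in TAZ4SA vs EV, 2 in TAZ-CAMTA1 vs EV, 0 in TFE3 vs EV, 1 in CAMTA1 vs EVsub, 17 in EVsub vs EV, 25 in YAP-TFE3 vs YAP5SA, 20 in YAP-TFE3 vs TFE3 and 20 in TAZ-CAMTA1 vs TAZ4SA. The block was otherwise without effect on the counts beyond 1.5 times. In 3 comparisons, YAP-TFE3 vs EV among them, every library of the first group correlated best with its own number in the second. Depth limits ATP6V0C, ATP6V0A4, ATP6V1C2 and ATP6V0D2 most.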
